A study of Mus musculus with 6 samples.

Results

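Thioredoxin, the peroxiredoxins and the quinone reductases form a set of enzymes that keep protein thiols reduced and remove peroxides and quinones. The genes described here are *Txn1*, *Txnrd1*, *Srxn1*, *Prdx1*, *Prdx6*, *Nqo1*, *Me1*, *Cat*, *Sod1* and *Sod2*, 10 of the 34787 gene names on the array. They were chosen by name, with earlier results of these data known. All spots that were not controls and carried any of these names were taken, which gave 17 probes of 55681. All 10 genes were found.

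The cells were bone marrow–derived macrophages (BMDMs), which are macrophages grown from bone marrow in culture, here for 7 days with L929 conditioned medium. The marrow came from wild type female mice, aged 6 to 8 weeks according to the labels, while the methods of the study give an older range. The strain is written C57/B6 and C57BL/6 in the labels and C57BL6/J in those methods. There were 3 groups with 2 arrays each, and the 2 samples of a group came from independent experiments. Untreated cells received neither agent. LPS cells were given lipopolysaccharide (LPS), a component of bacterial walls sensed by TLR4, for 4 h. LPS+USP7i cells received the same after a 30 min exposure to 10 µM HBX41,108, a small molecule inhibitor of the deubiquitinase USP7. The LPS dose was 100 ng/ml in the description of the series and 100 ng/µl in the sample labels. No solvent control is stated in either source, so any solvent effect forms part of the LPS+USP7i against LPS differences.

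Thioredoxin is an electron donor for peroxiredoxins and other thiol proteins, and thioredoxin reductase recharges it with electrons from NADPH. Many genes of this system are known targets of the transcription factor NRF2, which is held in the cytoplasm and turned over through KEAP1 until electrophiles or oxidants modify KEAP1 cysteines. In macrophages these enzymes protect the cell from the oxidants it produces during activation, and the mitochondrial superoxide dismutase gene is a known target of NF-κB.

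Promoter windows of the genes were searched for the motifs of NRF2 and NF-κB. RefSeq windows (build GRCm38.p6), each from 250 bases before to 50 bases after a transcript start, were on hand for 9 of the 10 genes, in 12 windows, and not for *Prdx6*. The core of the antioxidant response element, TGACNNNGC on either strand, had a match in a window of 5 of the 9 genes (*Txnrd1*, *Prdx1*, *Srxn1*, *Me1* and *Sod1*). By window, 5 of the 12 held a match, while 12.4% of all 32851 windows did. The NF-κB motif, also searched on both strands, had a match for 3 of the 9 genes (*Sod2*, *Cat* and *Prdx1*), in 3 of the 12 windows, and 8.46% of all windows held a match. The matches of *Srxn1* (GCTAGGTCA) and *Me1* (TGACTCAGC) began at base 29 after and base 6 before the transcript start. The stretches below, read 5′ to 3′ on the strand of the gene, show the matches that lay wholly before the start in *Txnrd1*, *Prdx1* and *Sod1* for the antioxidant response element and in *Sod2* for the NF-κB motif, with the match in capitals. They lie at chr10:82859088-82859148 (plus strand), chr4:116685440-116685500 (plus strand), chr16:90220680-90220740 (plus strand) and chr17:13007730-13007790 (plus strand).
Txnrd1: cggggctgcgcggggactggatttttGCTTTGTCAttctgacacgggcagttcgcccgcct
Prdx1: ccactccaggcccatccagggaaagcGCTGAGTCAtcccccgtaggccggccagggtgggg
Sod1: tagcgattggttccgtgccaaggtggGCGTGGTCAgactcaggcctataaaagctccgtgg
Sod2: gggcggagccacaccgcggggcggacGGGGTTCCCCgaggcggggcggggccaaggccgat
The antioxidant response element matches in *Txnrd1*, *Prdx1* and *Sod1* read TGACNNNGC on the opposite strand, and the one in *Txnrd1* belongs to 1 of its 3 windows. A match is a string of letters and not a measured binding site.

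With LPS alone, *Sod2* and *Txnrd1* rose strongly and *Txn1* rose slightly, while the peroxiredoxin, sulfiredoxin, quinone reductase and catalase genes did not pass the threshold. With the USP7 inhibitor, the pattern was another, and *Srxn1*, *Prdx6*, *Me1*, *Txnrd1*, *Prdx1*, *Cat* and *Txn1* were higher than with LPS alone, by 15.6-fold for *Srxn1* down to 1.37-fold for *Txn1*. In LPS against untreated, 3 of 10 genes were higher and 0 lower at an adjusted p under 0.05, against 7.98% and 12.8% of all 34787 gene names. With the inhibitor, in LPS+USP7i against LPS, 7 of 10 were higher and 0 lower, against 5.52% and 4.27% of all names. Set against untreated cells, LPS+USP7i had 7 of 10 higher and 0 lower, against 6.16% and 8.71%. By limma at an unadjusted p under 0.05, 2, 1 and 0 genes were lower in these comparisons, in the same order, beside 20.6%, 11.7% and 16.6% of all names. Where a gene had several probes, its brightest probe was the one counted. The comparisons share arrays, with the LPS arrays, the untreated arrays and the LPS+USP7i arrays each entering 2 of them, so their values are given side by side and are not independent. In bulk RNA, a change in the amount of RNA per cell and a change in the share of cells that hold it cannot be told apart.

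**Figure D1:**
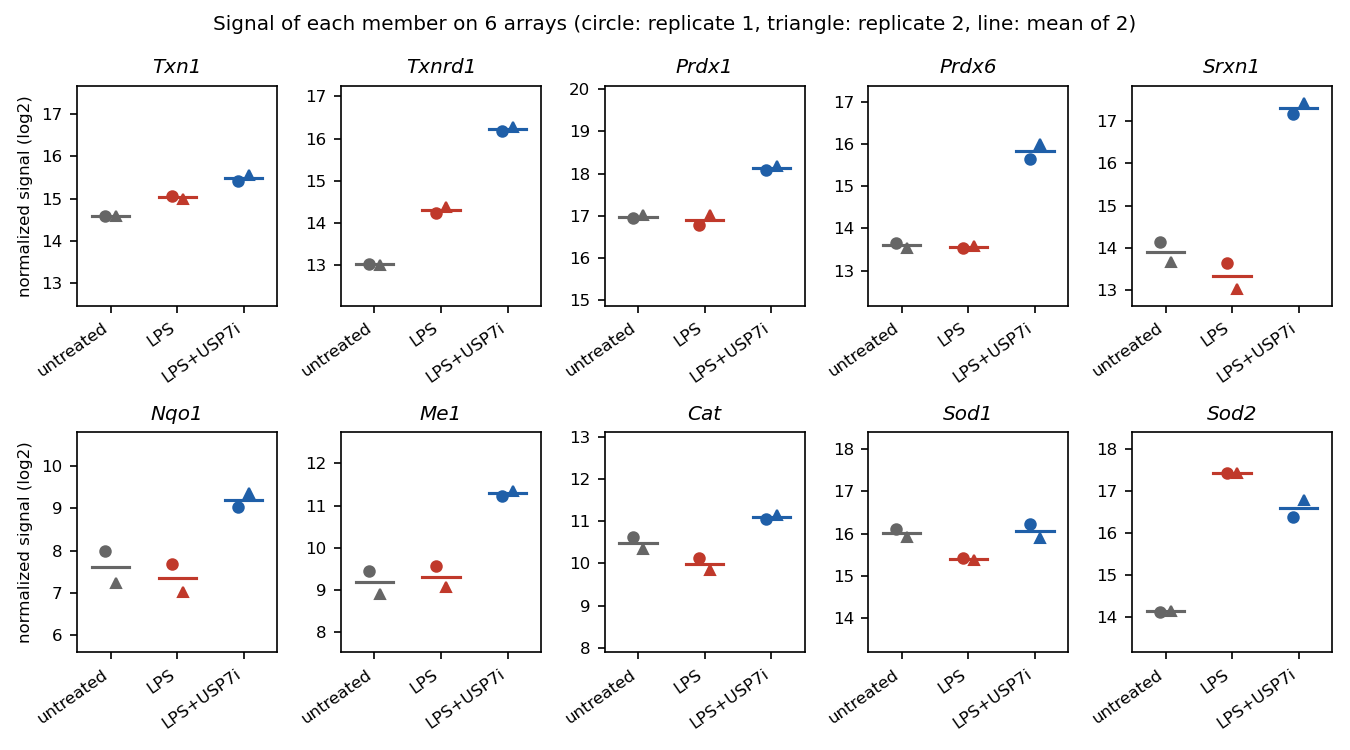
Normalized signal on the log2 scale (vertical axis, each panel spanning the same range) of the 10 genes in untreated, LPS and LPS+USP7i cells. Circles are replicate 1, triangles replicate 2 and lines the mean of 2 arrays; for *Srxn1* both LPS+USP7i arrays lie above 17 and all others below 14.2.

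*Txn1* encodes cytosolic thioredoxin. Its signal, on the log2 scale as all signals below, was 14.58 and 14.58 on the untreated arrays, 15.06 and 14.99 on the LPS arrays and 15.42 and 15.55 on the LPS+USP7i arrays (probe on chromosome 4, 57956677 to 57956736 of build mm9). The 3 groups did not overlap, and each step was small. *Txn1* rose by 0.44 with LPS (standard error 0.07, adjusted p = 0.029) and was 0.46 higher again with the inhibitor (standard error 0.07, adjusted p = 0.0449). The step with the inhibitor was called under 3 of 13 alternative ways of processing the data, with adjusted p values from 0.0146 to 0.427, and leaving out any of the 6 arrays ended the call (0.0688 without LPS+USP7i replicate 1 to 0.137 without LPS replicate 2). The step with LPS was called under 7 of the 13 (0.00563 to 0.138). It lost its call with the deposited table (0.138) and without untreated replicate 1 or 2 (0.125 and 0.131) or LPS replicate 1 or 2 (0.109 and 0.0786). With the replicate number as a block, neither step was called. With 75th percentile scaling the step with the inhibitor was 0.25 and the step with LPS 1.04. Relative to untreated cells *Txn1* was 0.90 higher with LPS+USP7i (adjusted p = 0.00958), a difference called under 11 of the 13 and not without untreated replicate 1 or 2 (0.06 and 0.0625).

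*Txnrd1* encodes the cytosolic reductase that returns thioredoxin to its reduced state. Its signal was 13.04 and 13.01 on the untreated arrays, 14.24 and 14.38 on the LPS arrays and 16.17 and 16.28 on the LPS+USP7i arrays (chromosome 10, 82360230 to 82360289). The order was the same on the arrays of both replicates, with gaps between groups far wider than the gap between replicates. *Txnrd1* rose 2.44-fold with LPS (log2 difference 1.28, standard error 0.08, adjusted p = 0.00438) and was a further 3.77-fold higher with the inhibitor (1.91, adjusted p = 0.0104). Against untreated cells the difference reached 3.20 (95% confidence interval 2.97 to 3.42, adjusted p = 0.00384). Both differences from untreated cells were called under all 13 alternatives, and the step with the inhibitor under 10 of them, not without untreated replicate 1 or 2 (0.0561 and 0.0561). *Txnrd1* and *Txn1* were the members called higher in all 3 comparisons. With the replicate number as a block, *Txn1* was called in LPS+USP7i against untreated only.

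*Prdx1* encodes a cytosolic peroxiredoxin, an enzyme that reduces hydrogen peroxide with electrons from thioredoxin. Its brighter probe read 16.94 and 17.01 on the untreated arrays, 16.78 and 17.02 on the LPS arrays and 18.09 and 18.17 on the LPS+USP7i arrays (chromosome 4, 116371818 to 116371877). Untreated and LPS cells overlapped, and both inhibitor arrays lay above all others. *Prdx1* was 1.23 higher in LPS+USP7i than in LPS (standard error 0.11, adjusted p = 0.0168) and 1.16 higher than in untreated cells (adjusted p = 0.0112). In LPS against untreated, the difference was −0.08 (95% confidence interval −0.37 to 0.22, adjusted p = 0.77), and with 75th percentile scaling it turned to 0.52. The other probe of *Prdx1* read 12.42 and 12.57, 12.50 and 12.63, and 14.14 and 14.37 in the same order of groups, with a difference of 1.69 between LPS+USP7i and LPS (adjusted p = 0.0135). On both probes the inhibitor arrays lay above all others, and the difference in LPS against untreated was −0.08 on one and 0.07 on the other. The call of the brighter probe ended without untreated replicate 1 or 2 in LPS+USP7i against LPS (adjusted p = 0.0658 and 0.0658) and against untreated (0.0674 and 0.0664), and in the former also without LPS+USP7i replicate 1 (0.0569).

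*Prdx6* encodes a peroxiredoxin that uses glutathione and also acts on phospholipids. It was read by 4 probes on chromosome 1. The brightest gave 13.66 and 13.54 on the untreated arrays, 13.54 and 13.58 on the LPS arrays and 15.64 and 16 on the LPS+USP7i arrays (163171138 to 163171197). On this probe untreated and LPS cells overlapped and the inhibitor arrays stood apart. On the others the LPS arrays lay above the untreated ones, but on the dimmest neither group was well above background. *Prdx6* was 4.78-fold higher in LPS+USP7i than in LPS (log2 difference 2.26, standard error 0.14, adjusted p = 0.0126). The next probes read 12.65 and 12.61, 12.82 and 12.79, and 15.09 and 15.42, and 11.78 and 11.73, 12.11 and 12.00, and 14.34 and 14.51, in the same order of groups. The dimmest had a mean of 3.08 on the untreated arrays and read 3.75 and 3.73 on the LPS arrays and 5.59 and 5.93 on the LPS+USP7i arrays. Over the 3 brighter probes the difference between LPS+USP7i and LPS ran from 2.26 to 2.45, all 3 of them past the threshold, while in LPS against untreated it ran from −0.04 to 0.30, short of it. The dimmest probe was not well above background on either untreated or LPS array and was well above it on both inhibitor arrays, so that it gives only a bound: at least 2.43-fold higher than with LPS (adjusted p = 0.0268) and at least 3.61-fold higher than in untreated cells (adjusted p = 0.0111). Without untreated replicate 1 or 2 the brightest probe was not called in LPS+USP7i against LPS (adjusted p = 0.0573 and 0.0573), nor without replicate 2 against untreated (0.0507). With 75th percentile scaling its difference in LPS against untreated turned from −0.04 to 0.49. The bound sets the mean of the bright group against, per array of the dim group, the higher of the dim probe's own signal and the lowest signal among probes well above background. Whether these probes also bind transcripts of the near copy *Prdx6b* was not tested.

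*Srxn1* encodes sulfiredoxin, which repairs peroxiredoxins whose active cysteine has been overoxidized. Its signal was 14.13 and 13.66 on the untreated arrays, 13.65 and 13.03 on the LPS arrays and 17.17 and 17.44 on the LPS+USP7i arrays (chromosome 2, 151937009 to 151937068). It was low on both LPS arrays and far higher on both inhibitor arrays than on any other. The difference between LPS+USP7i and LPS was 3.97 (standard error 0.29, adjusted p = 0.0144), the largest among the 10 genes by the probe that represents each, and 3.52 and 4.41 between the arrays of replicates 1 and 2. Against untreated cells it was 3.41 (adjusted p = 0.0101), a 10.6-fold increase. Without untreated replicate 1 or 2 the call against LPS ended (adjusted p = 0.0573 and 0.0573), and without untreated replicate 2 the call against untreated did (0.0579). LPS against untreated gave −0.56 (95% confidence interval −1.36 to 0.25, adjusted p = 0.343), short of the threshold, and −0.02 with 75th percentile scaling.

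*Nqo1* encodes the quinone reductase that takes quinones to hydroquinones with electrons from NADH or NADPH. Its signal was 7.98 and 7.24 on the untreated arrays, 7.68 and 7.03 on the LPS arrays and 9.04 and 9.36 on the LPS+USP7i arrays (chromosome 8, 109912440 to 109912499). The inhibitor arrays lay above the other arrays, but the replicates of the other groups lay well apart. The difference between LPS+USP7i and LPS was 1.85 (standard error 0.37, 95% confidence interval 0.83 to 2.87), short of the threshold over all probes (adjusted p = 0.0668). Over the 13 alternatives its adjusted p ranged from 0.00955 to 0.19, and it was called under 3 of them: with normexp background correction, with the deposited values and with dim probes left out. Against untreated cells the difference was 1.59 (adjusted p = 0.0755).

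*Me1* encodes the cytosolic malic enzyme, a source of NADPH. Its brightest probe read 9.45 and 8.91 on the untreated arrays, 9.56 and 9.06 on the LPS arrays and 11.23 and 11.35 on the LPS+USP7i arrays (chromosome 9, 86475077 to 86475136). Untreated and LPS cells overlapped on this probe, and the inhibitor arrays were the high ones. The difference between LPS+USP7i and LPS was 1.98 (standard error 0.27, adjusted p = 0.0318), and over its 3 probes it ran from 1.62 to 2.52 with all 3 called. The other probes read 8.83 and 8.34, 9.13 and 9.16, and 10.68 and 10.85, and 7.90 and 7.39, 8.49 and 7.83, and 10.59 and 10.78, in the same order of groups. On the brighter of these the LPS arrays lay above the untreated ones (0.56, 95% confidence interval 0.04 to 1.08, adjusted p = 0.147). Leaving out any of the 6 arrays ended the call of the brightest probe against LPS (adjusted p = 0.0708 without untreated replicate 1 to 0.111 without LPS+USP7i replicate 1). Against untreated cells *Me1* was 2.11 higher with LPS+USP7i (adjusted p = 0.0194), a call that ended without untreated replicate 1 or 2 (0.0567 and 0.0773) or LPS+USP7i replicate 1 or 2 (0.0754 and 0.0807). In LPS against untreated the 3 probes ran from 0.14 to 0.56 with 0 called.

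*Cat* encodes catalase, the peroxisomal enzyme that splits hydrogen peroxide. Its brighter probe read 10.62 and 10.35 on the untreated arrays, 10.12 and 9.85 on the LPS arrays and 11.06 and 11.15 on the LPS+USP7i arrays (chromosome 2, 103294487 to 103294546). The LPS arrays were the lowest and the inhibitor arrays the highest, with no overlap between groups. *Cat* was 2.18-fold higher in LPS+USP7i than in LPS (log2 difference 1.12, standard error 0.15, adjusted p = 0.0301). Its difference from untreated cells was −0.50 with LPS (adjusted p = 0.111) and 0.62 with LPS+USP7i (adjusted p = 0.0788), neither of which passed. The probes differed on this last comparison, since the other *Cat* probe gave 0.97 (adjusted p = 0.024). That probe read 9.51 and 9.29, 9.42 and 9.14, and 10.41 and 10.34, and was 1.10 higher in LPS+USP7i than in LPS (adjusted p = 0.0277). For the brighter probe, leaving out any of the 6 arrays ended the call against LPS (adjusted p = 0.0731 without LPS replicate 1 to 0.101 without LPS+USP7i replicate 1).

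*Sod1* and *Sod2* encode superoxide dismutases, the first in the cytosol and the second in the mitochondrial matrix, and they followed other patterns than the genes above. *Sod1* read 16.10 and 15.93 on the untreated arrays, 15.42 and 15.37 on the LPS arrays and 16.22 and 15.90 on the LPS+USP7i arrays (chromosome 16, 90226509 to 90226568). The LPS arrays were the low ones, and untreated and LPS+USP7i cells overlapped. The difference was −0.62 in LPS against untreated (adjusted p = 0.0576) and 0.66 in LPS+USP7i against LPS (adjusted p = 0.0735), neither past the threshold. Its difference in LPS+USP7i against untreated was 0.04 (95% confidence interval −0.34 to 0.43, adjusted p = 0.962). With 75th percentile scaling it was 0.45 (adjusted p = 0.0211), where the median of all names was 0.44 and 35% were called higher. The first of these differences was called under 7 of the 13 alternatives and was −0.03 with 75th percentile scaling.

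*Sod2* read 14.14 and 14.16 on the untreated arrays, 17.42 and 17.42 on the LPS arrays and 16.39 and 16.79 on the LPS+USP7i arrays (chromosome 17, 13208074 to 13208133). It rose 9.67-fold with LPS (log2 difference 3.27, standard error 0.15, adjusted p = 0.00319), the largest LPS response of the 10 genes. Alone among the members, its LPS+USP7i arrays lay below its LPS arrays. That difference was −0.84 (95% confidence interval −1.25 to −0.42), seen on both replicates (−1.03 and −0.64), and did not pass the threshold (adjusted p = 0.0549). It was called under 5 of the 13 alternatives, with adjusted p values from 0.009 to 0.18. *Sod2* stayed 2.44 above untreated cells in LPS+USP7i (adjusted p = 0.00653).

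**Figure D2:**
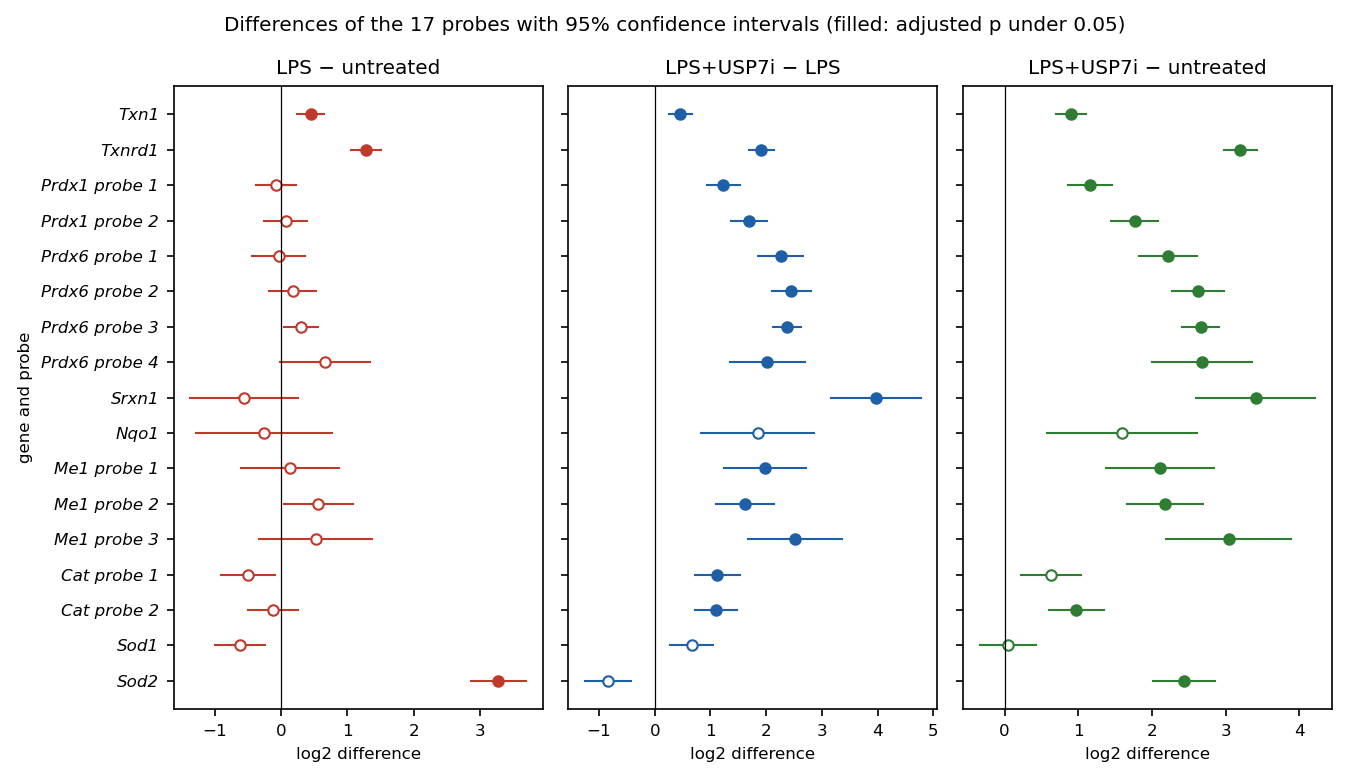
Log2 difference (horizontal axis) of each of the 17 probes in LPS against untreated, LPS+USP7i against LPS and LPS+USP7i against untreated, with 95% confidence intervals as lines; untreated and LPS arrays gave the dimmest *Prdx6* probe no signal well above background. Filled points have an adjusted p under 0.05; in LPS+USP7i against LPS, *Srxn1* lies furthest right at 3.97 and *Sod2* is to the left of 0 at −0.84.

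Across the 10 genes, the difference between LPS+USP7i and LPS ran from −0.84 to 3.97, with a median of 1.54 beside a median of 0.00 over all gene names. Taken by replicate, the median of the 10 was 1.34 for replicate 1 and 1.60 for replicate 2. In all 10 the arrays of LPS+USP7i and LPS did not overlap, with 9 higher and *Sod2* lower, while 52.1% of all names did not overlap. In LPS against untreated the median of the 10 was −0.06, also beside 0.00 over all names, and in 6 of the 10 the arrays did not overlap, close to the 60.9% of all names. The median in LPS+USP7i against untreated was 1.85, and in 9 of the 10, all but *Sod1*, the arrays did not overlap, against 58.3% of all names.

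The calls in LPS+USP7i against LPS changed with the arrays in the fit. In a fit of LPS+USP7i and LPS cells alone, and without untreated replicate 1 or 2, 0 of the 10 genes passed in LPS+USP7i against LPS by limma, while 9 of 10 were higher and 1 lower at an unadjusted p under 0.05 each time. Of all names, 0 passed in these fits, and 12.4% were higher and 10.6% lower at an unadjusted p under 0.05. The smallest adjusted p of any member was then 0.0561. Without LPS replicate 1 or 2, 4 and 4 genes were called higher, and without LPS+USP7i replicate 1 or 2, 3 and 4 were, with *Sod2* called lower in the latter pair. The shares of all names called higher were then 1.51% and 1.55%, and 3.33% and 5.48%. Leaving out untreated replicate 1 or 2 left 4 and 2 genes called higher in LPS+USP7i against untreated, beside 1.80% and 1.36% of all names. With 2 arrays a group, 0.333 is the smallest two-sided p an exact permutation can reach. Slide row differed with treatment and cannot be told apart from it, since untreated, LPS and LPS+USP7i arrays lay in rows 1, 2 and 4 of 1 slide.

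The normalization bears on the comparisons with untreated cells. When arrays were scaled to their 75th percentile and not quantile normalized, the median of all gene names moved to 0.40 in LPS against untreated and 0.44 in LPS+USP7i against untreated, and stayed at 0.00 in LPS+USP7i against LPS. Among probes well above background on both arrays of a group the median was 0.04 and 0.09 under that scaling in the comparisons with untreated cells, and −0.18 and −0.09 under quantile normalization. Of the 10 genes, bright ones such as *Prdx1* (−0.08 to 0.52) and *Txn1* (0.44 to 1.04) moved with the scaling in LPS against untreated, while *Cat* (−0.50 to −0.43) and *Me1* (0.14 to 0.17) moved little. By sign, 6 of the 10 genes, each represented by a probe well above background, were higher and 4 lower in LPS against untreated after scaling. Relative to the median of all names, 5 of the 10 genes lay above and 5 below the median of all names in LPS against untreated, 10 above in LPS+USP7i against untreated, and 9 above and 1 below in LPS+USP7i against LPS. Under that scaling 12150 names were called higher and 4048 lower in LPS against untreated, in place of 2775 and 4443, and 12182 and 3354 in LPS+USP7i against untreated, in place of 2144 and 3031.

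**Figure D3:**
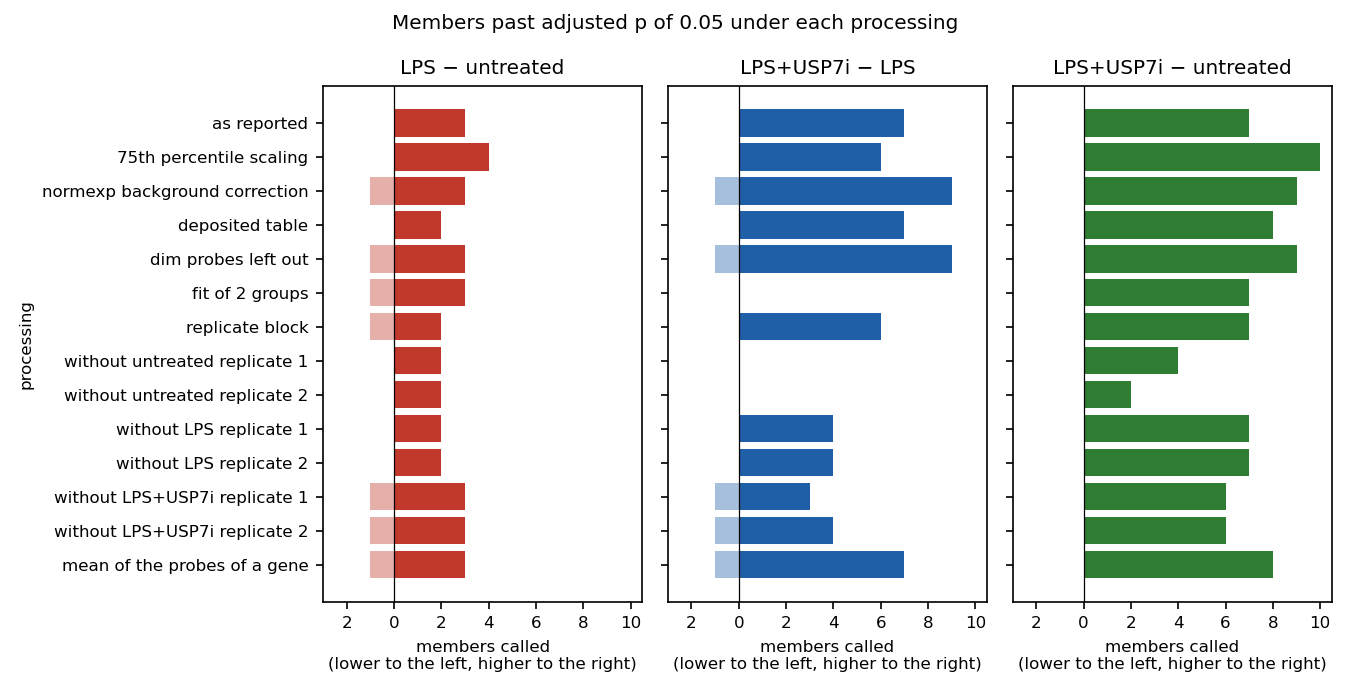
Number of the 10 genes (horizontal axis, lower to the left of 0 and higher to the right) past an adjusted p of 0.05 under each way of processing the data (vertical axis). In LPS+USP7i against LPS the count falls from 7 to 0 in the fit of 2 groups, and leaving out either untreated replicate gives that same fit.

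The wider redox network was followed with a list of 52 further genes that act beside the 10. Of these, *Sod3*, *Msrb3* and *Me3* were well above background on both arrays of 0 groups. In LPS against untreated, 7 of the 52 were higher and 19 lower, beside 7.98% and 12.8% of all names, and the median was −0.38. Among all probes well above background on both arrays of a group the median was −0.18. With dim probes left out, in a separate fit, 17.2% of the remaining names were higher and 28.3% lower. With 75th percentile scaling the split of the 52 was 10 higher and 10 lower, beside 34.9% and 11.6% of all names, with 26 of the 52 above 0 and 26 below, and 36 below the median of all names. The inhibitor, in LPS+USP7i against LPS, left 14 higher and 0 lower (2 lower by limma at an unadjusted p under 0.05), beside 5.52% and 4.27% of all names, with a median of 0.30 and 39 of 52 above 0. With 75th percentile scaling it was 11 and 1, beside 4.93% and 4.07%. In a fit of LPS+USP7i and LPS cells alone, 0 of the 52 passed by limma, as did 0 of all names. In that fit 22 were higher and 3 lower at an unadjusted p under 0.05, beside 12.4% and 10.6%. Against untreated cells, 12 were higher with LPS+USP7i and 7 lower, beside 6.16% and 8.71% of all names and with a median of 0.05. Scaling gave 21 and 6, beside 35% and 9.64%.

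By role, in LPS+USP7i against LPS, 2 of 11 thioredoxin and glutaredoxin genes outside the 10 were called higher (median 0.30) and 1 of 7 other peroxiredoxin and sestrin genes (median 0.20), beside the 5.52% of all names. These medians leave out *Sod3*, *Msrb3* and *Me3*. With dim probes left out, a separate fit and adjustment, 15.1% of the remaining names were called higher. Of genes for quinone and carbonyl reduction 2 of 6 were (median 0.53), of those for NADPH supply 2 of 7 (median 0.31) and of methionine sulfoxide reductase genes 1 of 4 (median 0.03). Of other genes for superoxide and peroxide removal 0 of 4 passed by limma (median 0.22), and 0 did at an unadjusted p under 0.05. Of 8 other NRF2 target genes 4 were called higher (median 1.98), and of the 5 genes of NRF2 and its regulators 2 were (median 0.71). These counts rest on the brightest probe of each gene. *Gsr* and *Ftl1* were not called by it (adjusted p = 0.0581 and 0.241), while another probe of each was (1.77 and 0.66, adjusted p = 0.0447 and 0.0445). *Glrx2* and *Msrb1* were called by it (0.38 and 0.65, adjusted p = 0.0419 and 0.0289) and not by the next probe (−0.09 and 0.39, adjusted p = 0.844 and 0.345).

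Of that list, *Hmox1*, *Gclc*, *Gclm* and *Cbr3* had the largest increases past the threshold in LPS+USP7i against LPS. *Hmox1*, which encodes the heme-degrading enzyme heme oxygenase, read 14.67 and 14.24 on the untreated arrays, 13.85 and 13.30 on the LPS arrays and 18.06 and 18.15 on the LPS+USP7i arrays. *Gclc* and *Gclm* encode the subunits of the enzyme that starts glutathione synthesis. *Gclc* read 10.28 and 10.06, 9.58 and 9.30, and 13.12 and 13.40 in the same order of groups. *Gclm* read 9.90 and 9.15, 9.60 and 8.52, and 12.75 and 12.96. All 3, like *Srxn1*, read far higher on the inhibitor arrays than on any other array. In LPS against untreated their differences were −0.88, −0.73 and −0.46 (adjusted p = 0.106, 0.0587 and 0.636), short of the threshold. Their differences between LPS+USP7i and LPS were 4.53 for *Hmox1* (adjusted p = 0.0113), 3.82 for *Gclc* (adjusted p = 0.0104) and 3.79 for *Gclm* (adjusted p = 0.028). *Cbr3*, a carbonyl reductase gene, was lowered by LPS (−1.40, adjusted p = 0.0188) and 2.89 higher with the inhibitor than with LPS alone (adjusted p = 0.013). All 4 lost the call against LPS without untreated replicate 1 or 2 (0.0561 for *Hmox1*, *Gclc* and *Cbr3*, 0.0752 for *Gclm*), *Cbr3* and *Gclm* also without LPS replicate 2 (0.0511 and 0.0672), and *Gclm* without LPS+USP7i replicate 1 or 2 (0.101 and 0.086). The fall of *Cbr3* was not called without LPS replicate 1 or 2 (0.0758 and 0.0849) or LPS+USP7i replicate 1 or 2 (0.0505 and 0.0505).

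LPS itself raised *Slc7a11*, which encodes the cystine transporter that feeds glutathione synthesis, by 3.68 (adjusted p = 0.00774, and by 2.21 with normexp background correction), *Mafk* by 2.41, the glutaredoxin gene *Glrx* by 1.23 and *Prdx5* by 1.10 (1.70 with 75th percentile scaling). *Slc7a11* read 4.77 and 5.15 on the untreated arrays, 8.43 and 8.85 on the LPS arrays and 10.45 and 11.22 on the LPS+USP7i arrays, and so rose in steps as *Txnrd1* did. Its difference between LPS+USP7i and LPS was 2.20 (adjusted p = 0.0407), a call that leaving out any of the 6 arrays ended (0.0575 without LPS+USP7i replicate 1 to 0.149 without LPS replicate 1). In the other direction, LPS lowered *Sesn1*, a sestrin gene, by −5.64 (adjusted p = 0.00289), *Txnip*, whose product binds and inhibits thioredoxin, by −1.91 (adjusted p = 0.0125), and the methionine sulfoxide reductase gene *Msrb2* by −1.32 (adjusted p = 0.0117). *Sesn1* read 13.61 and 13.29 on the untreated arrays, 7.77 and 7.85 on the LPS arrays and 9.79 and 9.26 on the LPS+USP7i arrays, and was 1.72 higher with the inhibitor than with LPS alone (adjusted p = 0.0304). That call ended without untreated replicate 1 or 2 (0.0824 and 0.0824), LPS replicate 1 or 2 (0.124 and 0.108) or LPS+USP7i replicate 1 (0.0632). The fall of *Msrb2* was not called without LPS replicate 1 (0.0593), and that of *Txnip* without untreated replicate 1 (0.0553) or LPS replicate 1 or 2 (0.0669 and 0.0642). *Txnip* thus moved opposite to *Txn1* and *Txnrd1* with LPS, and in LPS+USP7i against LPS its difference was −0.17 (adjusted p = 0.745). Against untreated cells, the lowest values past the threshold with LPS+USP7i were those of *Sesn1*, *Txnip*, *Msrb2* and the isocitrate dehydrogenase gene *Idh2* (−3.92, −2.09, −1.68 and −0.85), and the highest those of *Slc7a11*, *Hmox1*, *Gclm* and *Gclc* (5.87, 3.65, 3.33 and 3.09). Of these calls, those of *Txnip* and *Idh2* ended without untreated replicate 1 or 2 (0.0649 and 0.0559, and 0.0926 and 0.104), that of *Idh2* without LPS replicate 1 or 2 (0.052 and 0.052), and that of *Gclm* without untreated replicate 1 or 2 (0.0775 and 0.108) or LPS+USP7i replicate 1 or 2 (0.091 and 0.0992).

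Of the 5 genes of NRF2 and its regulators, 2 were called higher and 1 lower with LPS, and 2 were called higher with the inhibitor than with LPS alone (*Mafg* and *Bach1*). *Mafg*, which encodes a binding partner of NRF2, read 13.24 and 13.17 on the untreated arrays, 12.26 and 12.19 on the LPS arrays and 14.68 and 14.61 on the LPS+USP7i arrays. It fell with LPS (−0.98, adjusted p = 0.00499, and −0.55 with 75th percentile scaling) and was 2.42 higher with the inhibitor than with LPS alone (adjusted p = 0.00987, and 0.0561 without untreated replicate 1 or 2). *Nfe2l2*, which encodes NRF2, read 14.18 and 14.39 on the untreated arrays, 13.97 and 14.45 on the LPS arrays and 14.77 and 15.08 on the LPS+USP7i arrays, and its difference between LPS+USP7i and LPS was 0.71 (95% confidence interval 0.10 to 1.33, adjusted p = 0.162). *Keap1* read 12.67 and 12.65, 13.25 and 13.09, and 12.76 and 12.87 in the same order of groups. It rose by 0.51 with LPS (adjusted p = 0.0295, and by 0.95 with 75th percentile scaling) and differed by −0.35 with the inhibitor (adjusted p = 0.101). *Bach1*, which encodes a repressor at antioxidant response elements, read 12.25 and 11.97, 11.94 and 11.79, and 12.75 and 12.73, and was 0.88 higher in LPS+USP7i than in LPS (adjusted p = 0.0352). Leaving out any of the 6 arrays ended the call of *Keap1* (up to 0.135 without untreated replicate 2) and that of *Bach1* (up to 0.124 without LPS+USP7i replicate 1). These are RNA values, and NRF2 protein was not measured on the arrays.

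**Figure D4:**
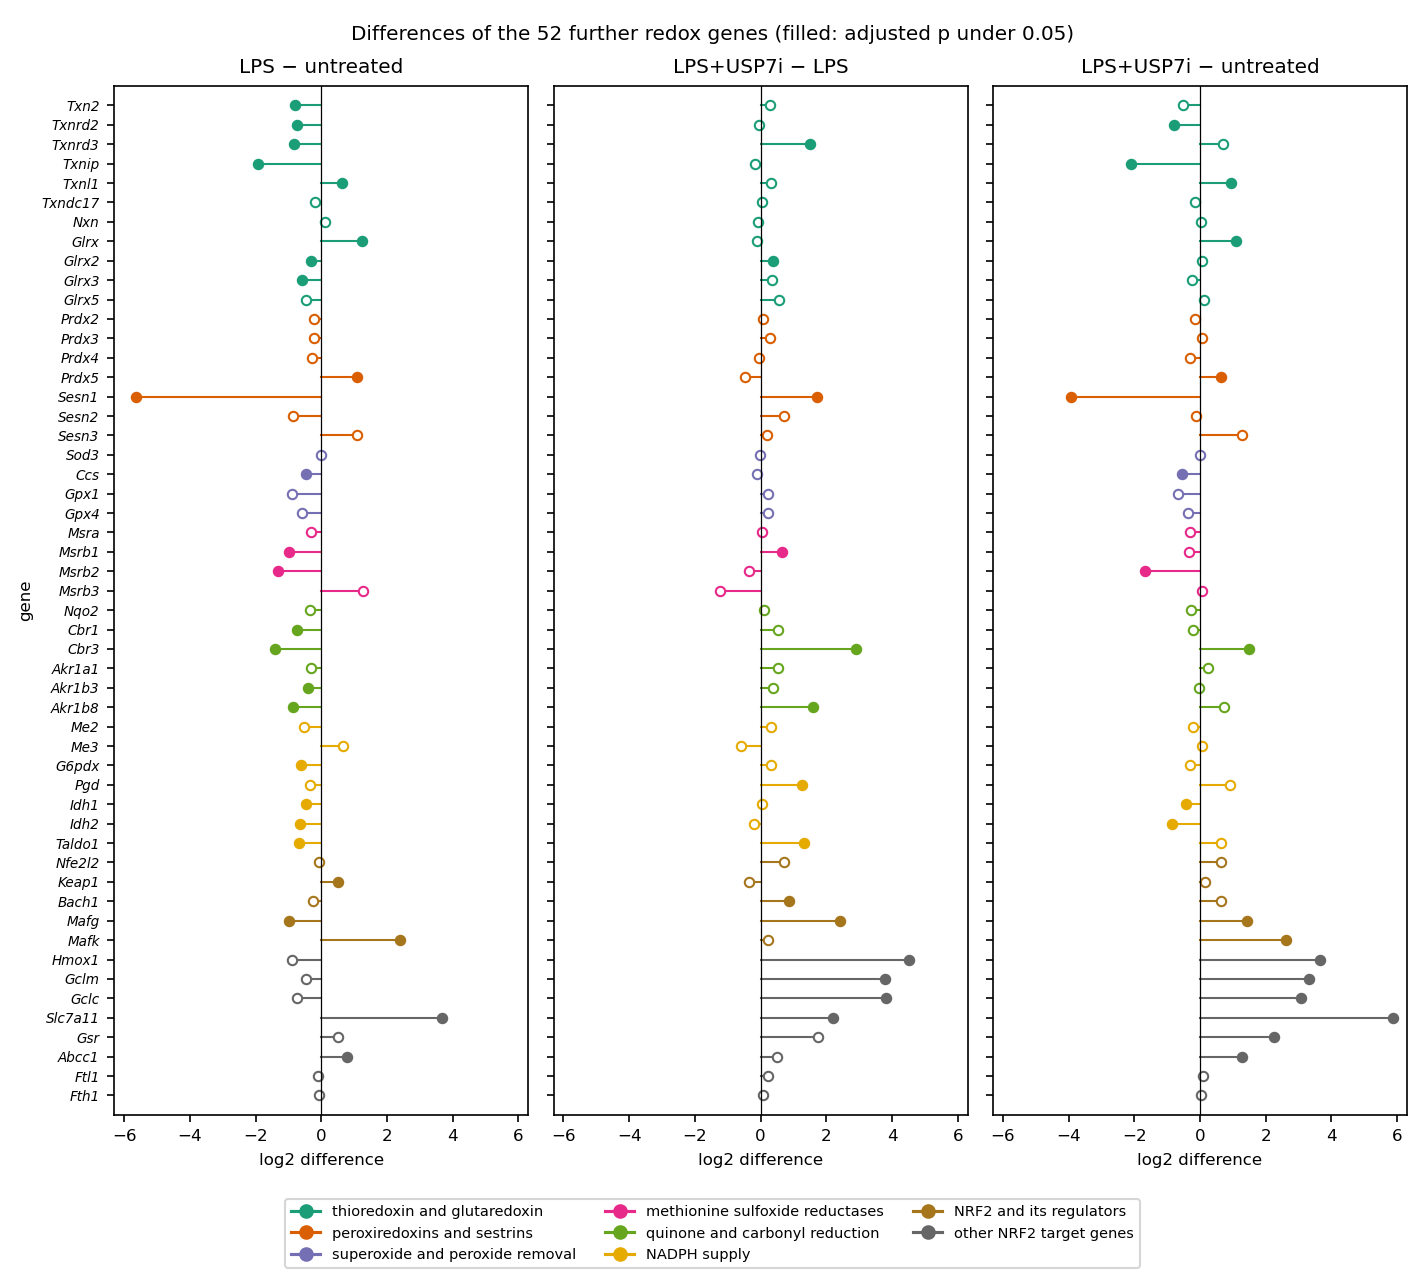
Log2 difference (horizontal axis) of the 52 further genes, coloured by role, in LPS against untreated, LPS+USP7i against LPS and LPS+USP7i against untreated. Filled points have an adjusted p under 0.05; *Hmox1* lies at 4.53 in LPS+USP7i against LPS and *Sesn1* at −5.64 in LPS against untreated, and with 75th percentile scaling the counts of the list in LPS against untreated turn from 7 higher and 19 lower to 10 and 10.

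The genes with the most similar profile over the 6 arrays were found among 7083 RefSeq names whose signal was well above background on both arrays of a group and spanned at least 1 on the log2 scale. For *Srxn1* they were *Afp*, *Hmox1*, *Gclc*, *Zwint* and *Vapa*, for *Nqo1* they were *4933408J17Rik*, *Gclm*, *Cavin4*, *Blvrb* and *Slc16a12*, and for *Sod2* they were *Socs1*, *Arid5a*, *Peli1*, *Cd69* and *Wdr92*. Likeness was Pearson's correlation over the 6 arrays, which fall into 3 treatment groups, so it mostly reflects the order of the group means. *Hmox1* and *Gclc* near *Srxn1*, and *Gclm* near *Nqo1*, belong to the list of 52. Near *Nqo1*, *4933408J17Rik* and *Cavin4* were well above background on the LPS+USP7i arrays alone and *Slc16a12* on 0 LPS arrays, so their order among the dim arrays was not measured.

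The labelled cell type was checked against marker genes. All 8 macrophage markers were well above background on all 6 arrays, led by *Csf1r*, and their summed signal on the linear scale was 729000 and 721000 on the untreated arrays, 724000 and 749000 on the LPS arrays and 628000 and 587000 on the LPS+USP7i arrays. By brightest probe, the markers did not all move the same way in LPS+USP7i against LPS. Most were lower, as was the summed signal: *Cd14* differed by −1.31, and *Fcgr1*, *Mertk*, *Adgre1* and *Csf1r* were also lower. *Cd68*, *Itgam* and *Lyz2* differed by 0.16, 0.31 and 0.15, short of the threshold. The part of cell makeup in these results was not tested. By brightest probe, 1 of the 8 macrophage markers was called higher (*Cd14*) and 1 lower (*Itgam*) with LPS, beside 7.98% and 12.8% of all names. With the inhibitor 2 were lower than with LPS alone (*Cd14* and *Fcgr1*), beside 4.27%. Against untreated cells 1 was lower with LPS+USP7i (*Fcgr1*, adjusted p = 0.0374), beside 8.71%. These names were picked after their values were seen. The dimmer *Cd68* probe was called lower with LPS (−0.43) and higher in LPS+USP7i against LPS (0.43). Neutrophil markers summed to 5040 and 5250, 5120 and 6360, and 5890 and 6670 in the same order of groups, led by *Elane*. B cell markers summed to 238 and 68.8, 531 and 125, and 337 and 108, led by *Cd79a*. For the marker *Pax5*, 1 of 2 probes, well above background on the LPS+USP7i arrays alone, was called higher there than in either other group. The other *Pax5* probe, well above background on 0 arrays, was not called (adjusted p = 0.639 against LPS and 0.76 against untreated). T and NK cell markers summed to 2180 and 1970, 2320 and 1920, and 2360 and 1770, led by *Cd4*, with *Cd3g* well above background on 0 arrays. Dendritic cell markers summed to 1390 and 1030, 1890 and 1060, and 1040 and 873, led by *Ccr7*, with *Flt3* and *Xcr1* well above background on 0 arrays. In LPS+USP7i against untreated, *Ccr7* differed by −0.42 (adjusted p = 0.615), and 1 of 2 probes of *Zbtb46*, not well above background on either untreated array, was called higher (adjusted p = 0.00806, and 0.14 for the other probe). The same *Zbtb46* probe was also called higher in LPS against untreated (adjusted p = 0.00435). It differed by −0.36 in LPS+USP7i against LPS (adjusted p = 0.315). Fibroblast markers summed to 60.1 and 63.7, 110 and 79.6, and 92.3 and 64.8, led by *Dcn*, which was well above background on both untreated arrays, both LPS arrays and 1 LPS+USP7i array, while *Col1a1*, *Col3a1* and *Pdgfra* were well above background on 0 arrays.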

How the data were processed

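The platform was the Agilent mouse array in 1 color, Cy3, with probes placed on build mm9 and all 6 arrays on 1 slide. The authors deposited the spot intensity of each array from the scanner software, corrected for background (Feature Extraction 10.7.3.1). The authors also deposited log2 values, already normalized, in a table in which the medians lay between 5.07 and 5.10, with the background correction unstated. Without controls there were 59305 spots an array, of which 25002 to 27467 were well above background and 0 saturated; 119 to 172 flagged as outliers were left out. The number of arrays limits the precision.

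Processed signals were quantile-normalized on the log2 scale after the methods of the study, spots of a probe were averaged, and 55680 probes were fitted with limma 3.58.1 in R 4.3.3, all 3 groups in a single linear model with 3 residual degrees of freedom. P values were adjusted by Benjamini-Hochberg over all probes, with a threshold of 0.05. Probes were named through RefSeq accessions (26762), symbols (3819) or synonyms (639), and otherwise kept the name in the file (24461). Tables and plots used Python 3.11.15, pandas 2.3.3, numpy 2.4.6 and matplotlib 3.10.9. The fit was tested on simulated data.

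The members and lists were chosen with earlier results of these data known. All 10 members are named with every probe. Of the list of 52 genes, the text names in each comparison the 4 largest increases and 4 largest decreases past the threshold that were well above background on both arrays of a group compared, and *Nfe2l2*, *Keap1*, *Bach1* and *Mafg*, the last added after its values were seen; for *Srxn1*, *Nqo1* and *Sod2* it names the 5 most similar profiles. Marker lists reported here covered macrophages, neutrophils, B cells, T and NK cells, fibroblasts and dendritic cells. The alternatives were 75th percentile scaling, the deposited table, normexp (offset 50) as background correction, leaving out dim probes, a fit of the 2 groups compared, the replicate number as a block, leaving out each array, and the mean of the probes of a gene. No annotation of build mm9 was used, so the exon or UTR that a probe reads is not given.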

Additional observations from a re-analysis of the deposited data

How the results depend on the processing

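The 13 alternatives were each run on the counts of members and of the 52 further genes and on the named genes. Among single genes, 815 values kept their direction and their side of the threshold, 140 kept the direction and lost the call, 41 kept it and gained a call, and 18 changed sign. The cause of these changes was not tested.

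Members lower in LPS against untreated, 0 as reported, were 1 with normexp background correction, with dim probes left out, in the fit of 2 groups and with the mean of the probes, *Sod1* each time, and 0 to 1 with an array left out. With normexp, dim probes left out, the fit of 2 groups and the mean of the probes, 15.3%, 28.3%, 11.6% and 13% of all names were lower. Members higher in LPS+USP7i against LPS, 7 as reported, were 0 in the fit of 2 groups, beside 0% of all names. They were 9 with normexp, 9 with dim probes left out and 6 with 75th percentile scaling, beside 8.28%, 15.1% and 4.93%. Members lower, 0 as reported, were 1 (*Sod2*) with normexp, dim probes left out and the mean of the probes, beside 6.82%, 12.9% and 4.64%. The counts with an array left out are given above. Members higher in LPS+USP7i against untreated, 7 as reported, were 10 with 75th percentile scaling, 9 with normexp and with dim probes left out, 8 with the deposited table and with the mean of the probes, and 2 to 7 with an array left out. The shares of all names called higher there were 35%, 7.89%, 15.4%, 4.94% and 6.42%, and 1.36% to 5.74%.

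Of the 52 further genes, those lower in LPS against untreated, 19 as reported, were 10 with 75th percentile scaling and 10 with the deposited table, and 5 to 13 with an array left out, beside 11.6%, 8.86% and 4.73% to 11.6% of all names, and those higher were 4 to 7. In LPS+USP7i against LPS, those higher, 14 as reported, were 0 in the fit of 2 groups and 0 to 8 with an array left out, and those lower, 0 as reported, were 1 with 75th percentile scaling, normexp or dim probes left out and 0 to 1 with an array left out. In LPS+USP7i against untreated, those higher, 12 as reported, were 21 with 75th percentile scaling and 5 to 10 with an array left out, and those lower, 7 as reported, were 2 to 5. In LPS+USP7i against LPS, 0% of all names were higher in the fit of 2 groups. The shares lower were 4.07%, 6.82% and 12.9% with 75th percentile scaling, normexp and dim probes left out. In LPS+USP7i against untreated, normexp, dim probes left out and the mean of the probes gave 18, 18 and 17 higher. Beside these stood 7.89%, 15.4% and 6.42% of all names. A lone array left in a group was assumed to vary like the other groups. Outside the groups compared, it left the fit of 2 groups unchanged.

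The changes of sign were all in differences that had not passed the threshold. With 75th percentile scaling, LPS against untreated turned to 0.10 for *Bach1*, 0.50 for *Nfe2l2*, 0.52 for *Prdx1* (adjusted p = 0.013, range over alternatives 0.013 to 0.999) and 0.49 for *Prdx6*. With an array left out, that comparison ran from −1.01 to 0.0794 for *Gclm*, −0.13 to 0.40 for *Me1*, −0.31 to 0.17 for *Nfe2l2*, −0.62 to 0.12 for *Nqo1*, −0.20 to 0.0475 for *Prdx1* and −0.10 to 0.0214 for *Prdx6*, which was 0.27 with the mean of its probes. For *Sod1* in LPS+USP7i against untreated it was −0.0286 with the deposited table and ran from −0.12 to 0.20 with an array left out, and for *Txnip* in LPS+USP7i against LPS it ran from −0.40 to 0.0501.

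The samples of a replicate number share that number and a slide column, and no label says that a number marks a shared experiment. Deviations from the group means correlated between same-numbered arrays with r of 0.31, 0.29 and 0.31 over 25057 probes. With the replicate block, members higher were 2, 6 and 7 in LPS against untreated, LPS+USP7i against LPS and LPS+USP7i against untreated, members lower were 1, 0 and 0, beside 8.43%, 4.10% and 6.36% of all names higher and 13.5%, 3.23% and 9.42% lower, and further genes higher were 6, 12 and 18 and lower 16, 0 and 7.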
